A study of Sus scrofa with 4 samples.

Results

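Glycolysis splits glucose into pyruvate and yields ATP without oxygen, and the cytosolic enzymes of the pathway are among the most abundant transcripts of many cells. Its genes are known to respond to low oxygen through HIF1A and to growth signals, and lactate dehydrogenase lets the pathway run on by turning pyruvate into lactate. In the pancreas the pathway is known for its part in glucose sensing by beta cells, which keep LDHA and the lactate transporter gene SLC16A1 low. The enzymes followed here across cultured and primary cells of the pig pancreas were PFKP, ALDOA, TPI1, GAPDH, PGK1, PGAM1, ENO1 and LDHA. They were chosen by name, with earlier results of these data known. All 8 were found among the 30282 genes of the deposited matrices. Every feature of a gene, its body and any 3' extension, was summed.

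The data were single-cell RNA-seq libraries, 2 from porcine pancreatic ductal organoids (PPDO) and 2 from dissociated porcine pancreas. The study describes its PPDO lines as from a late postnatal and an adult pig. The ages in its methods both fall within its own late postnatal range. The lines were grown in a complete medium with WNT3a, R-Spondin-1 and Noggin. They were taken at different passages, both of which the study describes as holding mostly immature ductal cells. The primary pancreata came from late postnatal pigs, a wild-type animal and an INS-eGFP animal whose reporter is driven by the porcine insulin promoter. Some of the primary material was hand-picked ducts and some was sorted for DBA lectin or eGFP, so the share of a class of cells does not describe the organ. The labels did not say which library came from which animal, and culture, passage and group coincided. Effects of culture, passage and animal on a difference between PPDO and primary cells cannot be told apart.

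After filters on features and mitochondrial share, and on doublets in the primary libraries only, 8885 and 7337 PPDO cells and 5676 and 4274 primary cells were kept. A kept PPDO cell had a median of 34176 unique molecular identifiers (UMIs) in library 1 and 34459 in library 2, and a kept primary cell a median of 10176.5 and 23653.5. Primary cells were clustered without the glycolysis and hypoxia genes, and clusters were named from marker lists. Ductal-like cells numbered 2167 and 1189 in the primary libraries and fell into mostly different clusters in each. Endocrine-like (101 and 2213), endothelial-like (1072 and 265), immune-like (712 and 139) and acinar-like cells (257 and 175) were also compared. Stellate-like cells numbered 753 and 48 and were left out of the tests, since library 2 held fewer than 50.

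PPDO were short of ductal markers. The 8 matched markers of the ductal list summed to 1177 and 1086 CPM (a gene's UMIs scaled to a common total) in PPDO, against 28148 and 32164 CPM in ductal-like cells. CFTR, the chloride channel of duct cells, was at 1.04 and 0.636 CPM in PPDO and at 952 and 794 CPM in ductal-like cells. KRT7, an epithelial keratin, was at 389 and 384 CPM in PPDO and 553 and 595 CPM in ductal-like cells. Of the 12 immune markers CD74 alone was abundant in PPDO (4811 and 4523 CPM), while PTPRC was at 0.419 and 0.210 CPM.

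In the RefSeq annotation of Sscrofa11.1 the 8 genes lay on 7 chromosomes. GAPDH (ENSSSCG00000000694) was at chr5:64129678-64135194 and TPI1 (ENSSSCG00000000685) at chr5:63839473-63842853 on the same chromosome. ENO1 (ENSSSCG00000022343) was at chr6:69385879-69401664, LDHA (ENSSSCG00000013366) at chr2:40814163-40827284 and PGK1 (ENSSSCG00000012440) at chrX:62187472-62210321. ALDOA (ENSSSCG00000032556) was at chr3:18246036-18260167, PGAM1 (ENSSSCG00000010517) at chr14:108822782-108832818 and PFKP (ENSSSCG00000011158) at chr10:67022652-67082336.

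To see where the enzymes were used, their CPM were set side by side over the classes of cells. The 8 together took 12199 and 13534 CPM of PPDO, 1633 and 1781 CPM of ductal-like cells, 1120 and 1693 CPM of immune-like cells, 647 and 649 CPM of endothelial-like cells, 419 and 433 CPM of endocrine-like cells and 116 and 155 CPM of acinar-like cells. PPDO thus stood above every primary class, and the ranges of ductal-like and immune-like cells overlapped. With hormone and digestive enzyme genes left out of the totals the sum was 716 and 926 CPM in endocrine-like cells and 647 and 656 CPM in endothelial-like cells, which turned the order of these classes. The sum was mostly GAPDH in PPDO, at 69.6% and 70.6% of the UMIs of the 8 genes, and 38.5% and 39.1% in ductal-like cells. PGAM1 gave 20.2% and 18.3% of them in ductal-like cells and 2.23% and 1.95% in PPDO.

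**Figure D1:**
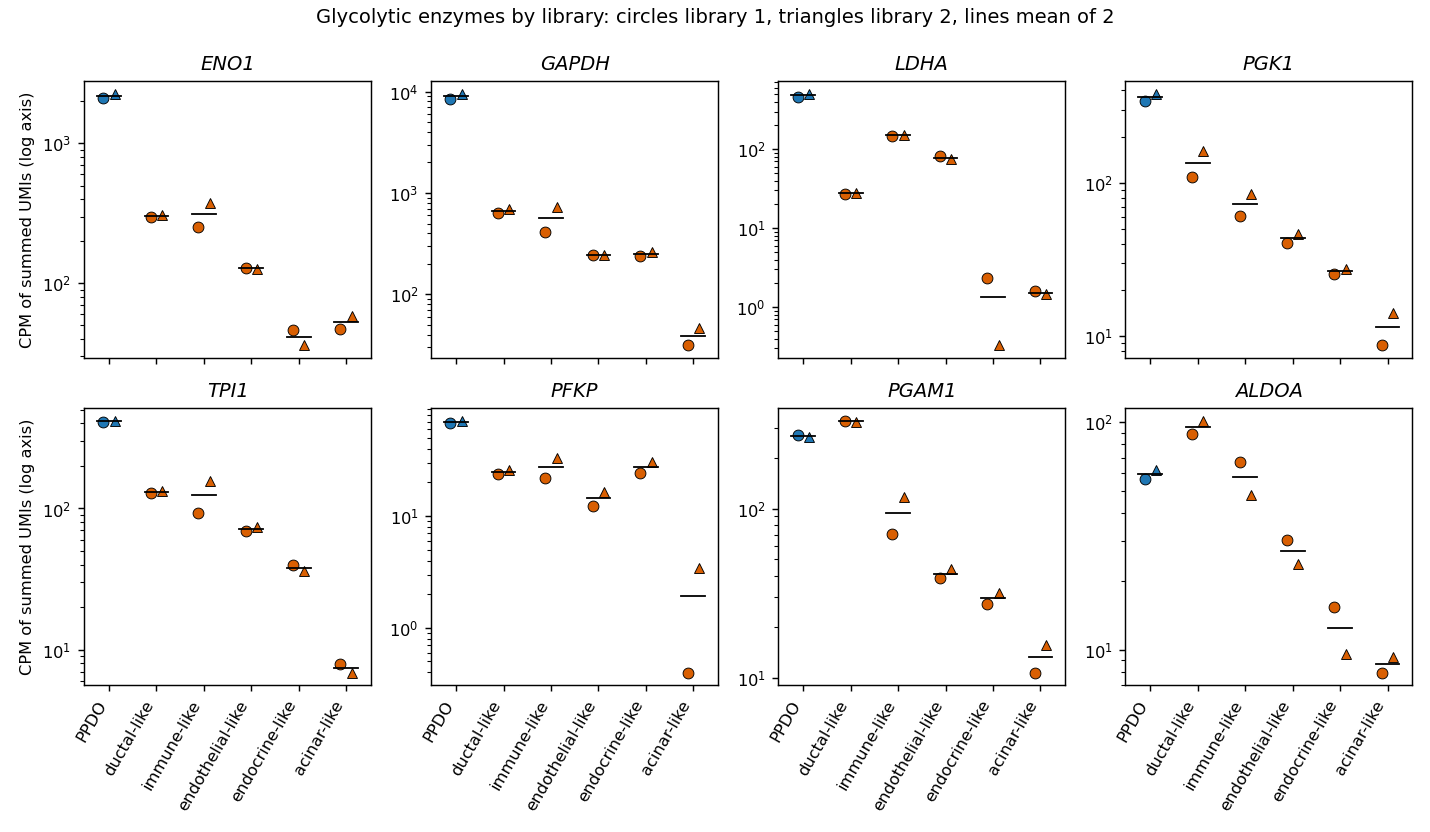
CPM of each enzyme in each library (y axis, log scale; each panel has its own range) for PPDO and the 5 primary classes with at least 50 cells per library. Circles are library 1 and triangles library 2 of PPDO or of primary pancreas, and lines are means of 2. LDHA spans from 0.328 CPM in endocrine-like cells to 505 CPM in PPDO, whereas PGAM1 and ALDOA are highest in ductal-like cells.

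The classes were not ordered alike for each enzyme. LDHA, which makes lactate, fell from PPDO through immune-like cells (147 and 153 CPM), endothelial-like cells (81.1 and 74.7 CPM) and ductal-like cells (27.0 and 28.2 CPM), with no overlap between neighbours. It was nearly missing from acinar-like (1.59 and 1.47 CPM, 4 and 3 UMIs) and endocrine-like cells (2.37 and 0.328 CPM, 4 and 28 UMIs), whose ranges overlapped. Cluster 7, led by SST and GCG, was 54 of the 101 endocrine-like cells of library 1 and 426 of the 2213 of library 2. It held LDHA at 5.05 and 1.88 CPM and GAPDH at 167 and 103 CPM. Clusters 2 and 3 of library 2, with INS among their leading genes, held LDHA at 0.288 and 0.180 CPM and GAPDH at 246 and 299 CPM. GAPDH, the NAD+-dependent step, and TPI1, which interconverts the triose phosphates, followed the order PPDO, ductal-like, immune-like, with the last pair overlapping. PGK1, the first step that makes ATP, ran from PPDO and ductal-like down to acinar-like cells with no overlap between neighbours. Without hormone and digestive enzyme genes in the totals, PGK1 was at 43.5 and 59.0 CPM in endocrine-like and 40.8 and 46.9 CPM in endothelial-like cells, which overlapped. By the mean, the order of endocrine-like cells also turned for PGAM1 and TPI1 against endothelial-like cells and for ENO1 and LDHA against acinar-like cells. For TPI1 it did not turn in library 1, where endocrine-like cells had 67.7 CPM, and endothelial-like cells had at least 69.7 CPM in each library. The ranges of TPI1 and LDHA in these pairs overlapped. ENO1, which makes phosphoenolpyruvate, overlapped between immune-like (250 and 375 CPM) and ductal-like cells (299 and 308 CPM).

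PFKP, an isoform of the phosphofructokinase that commits sugar to the pathway, was second in immune-like cells (21.9 and 32.8 CPM), which overlapped with endocrine-like (24.2 and 30.2 CPM) and ductal-like cells. Without hormone and digestive enzyme genes in the totals, PFKP was at 41.4 and 64.6 CPM in endocrine-like and 22.0 and 33.2 CPM in immune-like cells, so endocrine-like cells came second with no overlap. PGAM1, which shifts the phosphate of phosphoglycerate, was the highest in ductal-like cells, above PPDO and above immune-like cells (70.3 and 117 CPM). ALDOA, which splits fructose bisphosphate, was also highest in ductal-like cells, and its ranges in PPDO and immune-like cells (67.0 and 48.2 CPM) overlapped. Within the ductal class, clusters differed in level. Cluster 8 of library 1 (444 cells, a median of 5034 UMIs and a mitochondrial share of 1.57%) held 525 CPM of the 8 enzymes and cluster 24 of library 2 (64 cells) held 273 CPM, while the 3 larger clusters held between 1657 and 1845 CPM.

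PPDO were then compared with ductal-like cells on UMIs summed per library. A gene was called when its Benjamini-Hochberg adjusted p over all genes tested was below 0.05 in edgeR's quasi-likelihood test with TMM scaling. All 8 enzymes passed the filter on low counts. Of the 8 enzymes, 6 (LDHA, GAPDH, ENO1, TPI1, PFKP and PGK1) were called higher in PPDO and PGAM1 and ALDOA were not called. Over all 23543 genes tested, 22.9% were called higher and 20.9% lower, so calls were common. The median log2 fold change of the 8 enzymes was 2.03, and that of all genes was 0.01.

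LDHA was at 454 and 505 CPM in PPDO and at 27.0 and 28.2 CPM in ductal-like cells. This was the largest change of the 8, with a log2 fold change of 4.58 ± 0.18 (SE, n = 2 per group, edgeR adjusted p = 0.000396). GAPDH was at 8489 and 9562 CPM in PPDO and 628 and 697 CPM in ductal-like cells, which gave a log2 fold change of 4.23 ± 0.19 (edgeR adjusted p = 0.000517). ENO1 was at 2106 and 2273 CPM in PPDO and 299 and 308 CPM in ductal-like cells (log2 fold change 3.31 ± 0.17, edgeR adjusted p = 0.000675). In all 3 the groups were far apart compared with the spread between their libraries.

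TPI1, PFKP and PGK1 rose by less. TPI1 was at 412 and 417 CPM in PPDO and 128 and 132 CPM in ductal-like cells (log2 fold change 2.12 ± 0.15, edgeR adjusted p = 0.00116). PFKP was at 67.5 and 71.0 CPM in PPDO and 23.8 and 26.0 CPM in ductal-like cells (1.94 ± 0.14 on the log2 scale, edgeR adjusted p = 0.00135). PGK1 was at 343 and 381 CPM in PPDO, and its ductal-like libraries lay farther apart, at 108 and 162 CPM (1.90 ± 0.18 on the log2 scale, edgeR adjusted p = 0.0024). None of the 6 overlapped between groups by CPM, but the uncalled PGAM1 and ALDOA did not overlap either, so this does not set the 6 apart. The share of all genes without overlap was not taken.

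PGAM1 was at 272 and 263 CPM in PPDO and at 329 and 326 CPM in ductal-like cells, and ALDOA was at 56.5 and 61.6 CPM against 88.8 and 101 CPM. Both were lower in PPDO by CPM. With TMM scaling the log2 fold changes were 0.16 ± 0.15 for PGAM1 (edgeR adjusted p = 0.426) and -0.23 ± 0.14 for ALDOA (edgeR adjusted p = 0.238). Scaled by library totals alone they were -0.29 (edgeR adjusted p = 0.163) and -0.69 (edgeR adjusted p = 0.0236), so PGAM1 changed sign and ALDOA was called lower. That scaling moved the median of all genes from 0.01 to -0.45 and the calls from 5382 higher and 4915 lower to 3253 and 6955. The other 6 enzymes remained called higher under it.

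**Figure D2:**
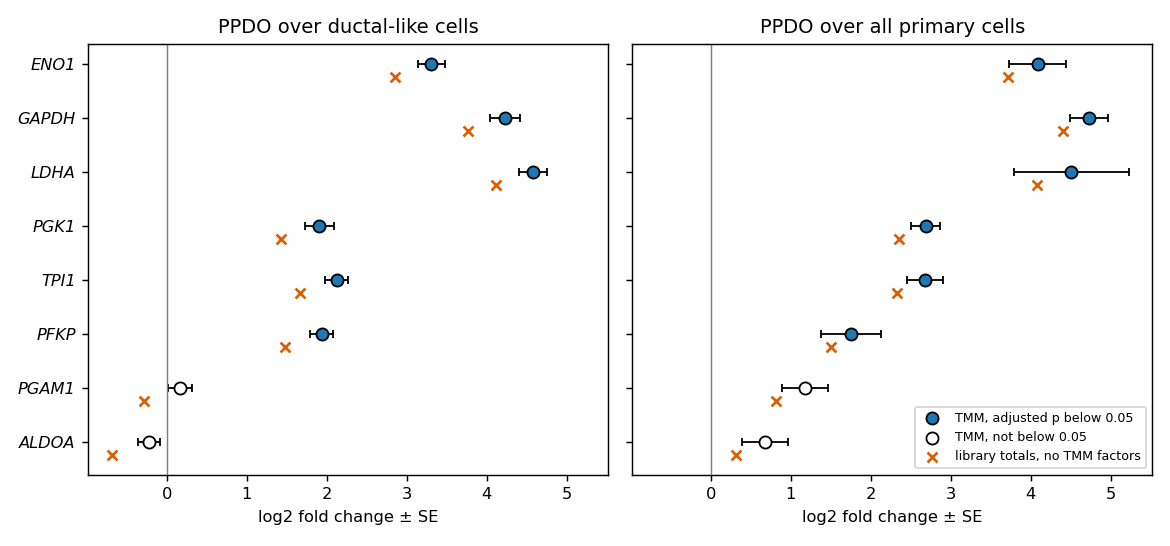
Log2 fold changes (x axis) of each enzyme in PPDO over ductal-like cells (left) and over all primary cells (right), from edgeR on 2 libraries per group. Circles are TMM-scaled values with their SE, filled where the adjusted p was below 0.05, and crosses are values scaled by library totals alone. In each panel 6 circles are filled, and PGAM1 and ALDOA lie close to 0 on the left.

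The counts of called genes in the lists that follow stand beside 22.9% higher and 20.9% lower over all genes, and beside 3253 higher and 6955 lower of 23543 genes by library totals. Of 20 other glycolysis genes tested, 7 were called higher and HKDC1 was called lower (median log2 fold change 1.00). PKM, the pyruvate kinase of most tissues, rose from 162 ± 5.59 to 788 ± 2.03 CPM (mean ± SD, n = 2; log2 fold change 2.74 ± 0.15 SE, edgeR adjusted p = 0.000733). HK1, GPI and PFKL also rose, from 147 to 243 CPM, 95.3 to 196 CPM and 51.0 to 63.0 CPM, although PFKL was not called when scaled by library totals (0.31, edgeR adjusted p = 0.182). HK2, the inducible hexokinase, was at 88.6 ± 4.37 CPM in PPDO and 8.33 ± 10.8 CPM in ductal-like cells and was not called (edgeR adjusted p = 0.0873). LDHB, the other main lactate dehydrogenase subunit, was at 3.30 ± 3.44 CPM in PPDO and 1.65 ± 2.05 CPM in ductal-like cells and was not called (edgeR adjusted p = 0.484). RefSeq places LDHB both on chr2 (1280 bases) and on chr5 (20287 bases), while 1 identifier was counted here. Whether this identifier takes all LDHB reads was not tested, so the low level may be incomplete. ENO2 and PGAM2, tissue-restricted isoforms, were called higher at 3.78 and 1.77 CPM in PPDO. PFKM, ALDOC and ENO3 were not called. Scaled by library totals, 4 of the 20 genes were called higher and 2 lower.

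Among lactate and glucose transporters, 3 of 6 were called higher and SLC16A7 was called lower. SLC16A1 and SLC16A3, both monocarboxylate transporters, were at 258 ± 44.3 and 31.8 ± 3.41 CPM in PPDO and 11.4 ± 5.73 and 0.230 ± 0.064 CPM in ductal-like cells (log2 fold changes 4.91 ± 0.54 and 7.60 ± 0.27). SLC16A7 fell from 136 ± 25.6 to 13.8 ± 1.14 CPM. SLC2A1 and SLC2A3, the main glucose transporters of many cells, did not match a gene name in the matrices and were not analysed here. Of 8 glycolysis control genes tested, 4 were called higher and PDK4 was called lower, and by library totals 2 were called higher and 1 lower. PDK1, which holds pyruvate back from the mitochondrion, rose (3.83 ± 0.29 on the log2 scale), whereas PDK4 of the same family fell from 266 ± 1.03 to 0.360 ± 0.073 CPM.

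Pathways that branch from glycolysis were counted in the same way. Of 6 pentose phosphate genes tested, 4 were called higher (median log2 fold change 1.32), with TKT rising from 35.6 ± 1.24 to 283 ± 17.6 CPM. Of 6 pyruvate entry genes PC alone was called with TMM scaling (4.13 ± 0.32 on the log2 scale), and PDHA1, PDHB, PDHX and DLAT lay between -0.27 and 0.24 on the log2 scale and were not called. By library totals 1 gene of each of these lists was called lower, with 4 pentose phosphate genes and 1 pyruvate entry gene called higher as before. Of 6 gluconeogenesis genes, G6PC2, PCK1, PCK2 and FBP1 were called lower and none higher. Of 17 TCA cycle genes, 1 was called higher and 5 lower (median -0.17). Of 25 hypoxia response genes, 17 were called higher and 3 lower (median 1.62), and of 19 nuclear oxidative phosphorylation genes 7 were called higher and 2 lower (median 0.27). Scaled by library totals these counts were 14 and 3 for hypoxia response, 3 and 3 for oxidative phosphorylation and 0 and 9 for the TCA cycle. Of the cell cycle genes, 11 of 17 mitosis and 14 of 17 DNA replication genes were called higher, and 11 and 8 were by library totals, with 1 mitosis gene then called lower. All 12 ribosomal protein genes tested were called higher (median 2.05).

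Against all primary cells together the same 6 enzymes were called higher (11.9% of 24759 genes were called higher and 13.7% lower). GAPDH was at 494 and 358 CPM in the primary libraries (log2 fold change 4.73 ± 0.23, edgeR adjusted p = 0.00884) and the mean of LDHA was 28.5 ± 25.8 CPM (SD, n = 2). Hormone and acinar genes took 13552 and 389943 CPM of these libraries, and without them GAPDH was at 501 and 587 CPM and PGAM1 at 212 and 158 CPM, which turned the order of the libraries for GAPDH. The primary libraries were farther apart for LDHA, and its log2 fold change of 4.51 carried an SE of 0.72 (edgeR adjusted p = 0.0273). PGAM1 was at 209 and 96.4 CPM in the primary libraries (log2 fold change 1.18 ± 0.28, edgeR adjusted p = 0.0534) and ALDOA at 65.2 and 30.2 CPM (0.68 ± 0.29, edgeR adjusted p = 0.153), and neither was called. Scaled by library totals the same 6 enzymes were called, while the calls over all genes went from 2955 higher and 3403 lower to 1017 and 3332 and their median from -0.12 to -0.43. This comparison uses the same PPDO libraries as the preceding comparison and takes in the ductal-like cells. None of the 8 enzymes was called when PPDO library 1 or PPDO library 2 was left out, in fits that called 0 genes in all (5070 and 4745 genes had an unadjusted p below 0.05).

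The primary classes were compared with ductal-like cells within the 2 primary libraries, with the library as a term, and each contrast shared the ductal-like sums. LDHA was the enzyme that parted the classes most. It was higher than in ductal-like cells in immune-like (log2 fold change 2.44 ± 0.32, edgeR adjusted p = 0.000158) and endothelial-like cells (1.60 ± 0.31, edgeR adjusted p = 0.00215), and lower in endocrine-like cells (-4.93 ± 0.46, edgeR adjusted p = 3.13e-05) and acinar-like cells (-2.88 ± 0.51, edgeR adjusted p = 0.00205). PGAM1 was lower in each of the 4 classes, by 1.87 to 3.39 on the log2 scale. PGK1 and ALDOA were also lower in all 4, though ALDOA was not called in immune-like cells under 5 of the 8 alternatives.

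**Figure D3:**
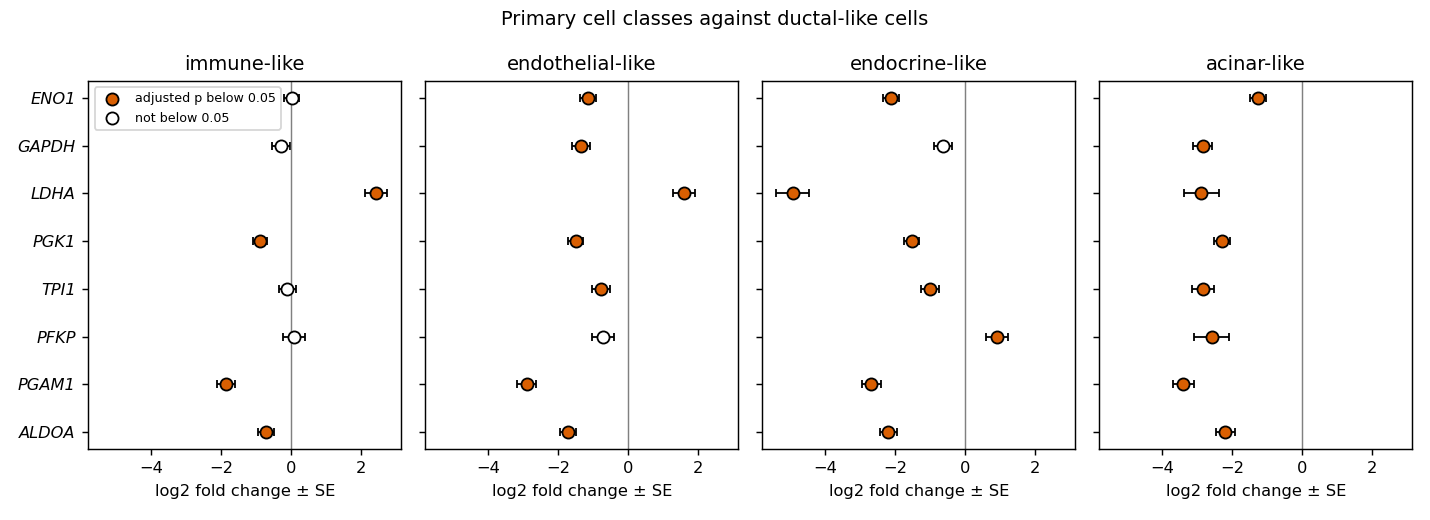
Log2 fold changes ± SE (x axis) of each enzyme in 4 primary classes against ductal-like cells of the same 2 libraries, from edgeR with TMM scaling. Filled circles had an adjusted p below 0.05. LDHA lies right of 0 in immune-like and endothelial-like cells and left of 0 in endocrine-like and acinar-like cells, while PGAM1 lies left of 0 in all 4.

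In endocrine-like cells 6 of the 8 enzymes were called lower (background 19.5%) and PFKP was called higher (background 19%; log2 fold change 0.92 ± 0.32, edgeR adjusted p = 0.0455). The PFKP call was lost under 5 of the 8 alternatives, among them scaling by library totals (0.10, edgeR adjusted p = 0.809), under which GAPDH was called lower (-1.41, edgeR adjusted p = 0.00201) in place of its uncalled value (-0.62, edgeR adjusted p = 0.0817). The islet hormone and acinar genes took 414835 and 532031 CPM of endocrine-like cells, which leaves a smaller share for all other genes. The glucose transporter gene SLC2A2 was at 247 CPM against 3.03 in ductal-like cells (8.77 ± 1.14 on the log2 scale). PFKFB2, a regulator of phosphofructokinase, was at 322 CPM against 14.7 (5.13 ± 0.73). SLC16A1, the lactate transporter gene, was at 1.34 CPM against 11.4 (-3.26 ± 0.46), and HK1 was at 2.32 against 147 CPM (-6.49 ± 0.53).

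In acinar-like cells all 8 enzymes were called lower (background 20%), from -1.26 ± 0.23 for ENO1 to -3.39 ± 0.29 for PGAM1. ENO1 was not called with the left-out genes used for clustering (-0.49, edgeR adjusted p = 0.412) or with doublets kept (-0.72, edgeR adjusted p = 0.205). These cells were few and shallow, with a median of 7329 and 7036 UMIs per cell, and the 8 enzymes gave 291 and 316 UMIs in all. In library 1, 149 of the 257 cells were cluster 20. This cluster passed 3 of 11 acinar markers, had none among its 10 leading genes and held 67.7 CPM of the 8 enzymes. All 175 cells of library 2 were cluster 15. With the left-out genes used for clustering 56 cells of library 2 were acinar-like, and with doublets kept 58 were. The 175 cells also held 45610 CPM of endocrine markers, against 274 CPM in the acinar-like cells of library 1. In endothelial-like cells LDHA was called higher (background 20.5%), 6 enzymes lower (background 21.6%) and PFKP was not called (-0.72 ± 0.32, edgeR adjusted p = 0.102). The call of TPI1 (-0.76 ± 0.25, edgeR adjusted p = 0.0349) was lost with the left-out genes used for clustering (edgeR adjusted p = 0.0641) and with doublets kept (edgeR adjusted p = 0.0525). In immune-like cells LDHA was called higher (background 21.4%), PGAM1, PGK1 and ALDOA lower (background 26.3%), and GAPDH, ENO1, TPI1 and PFKP were within 0.28 of 0 on the log2 scale. PFKFB3, which makes the activator of phosphofructokinase, was at 206 CPM in immune-like cells against 19.0 in ductal-like cells (3.76 ± 0.44). Scaling by library totals moved the median of all genes from -0.29 to -1.57 in the acinar contrast and from -0.04 to -0.89 in the endocrine contrast, and the calls over all genes from 2381 higher and 3226 lower to 1046 and 9555, and from 3076 and 3145 to 1844 and 7697. In the endothelial and immune contrasts the median moved by less, to -0.12 and -0.13. Islet hormone and acinar genes took 797 and 8304 CPM of ductal-like cells, and with them left out the calls of 7 enzymes in endocrine-like and of all 8 in the other classes were as before.

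Whether the enzymes moved together was asked within PPDO. Each cell was thinned to 10000 UMIs, which left out 522 and 176 shallower cells, and Pearson r of ln(count + 1) was taken over 8363 and 7161 cells. All 28 pairs were positive in both libraries, with a mean r of 0.206 in library 1 and 0.285 in library 2. Other lists were taken alike, over their genes found in at least 10% of cells. Their mean r was 0.295 and 0.358 for ribosomal proteins, 0.214 and 0.203 for early response and 0.186 and 0.169 for hypoxia response. It was 0.0098 in both libraries for the TCA cycle and 0.021 and 0.029 for other glycolysis genes. The mean r thus did not set the enzymes apart from every other list. The lists also differed in count size. Per thinned cell the 8 enzymes summed to 146 and 150 UMIs and the ribosomal proteins to 317 and 315. Other glycolysis genes summed to 15.3 and 14.7 UMIs and TCA cycle genes to 12.2 and 12.4. The part of count size in the mean r of a list was not tested. Among the enzymes, ENO1, GAPDH and LDHA were tied most closely. ENO1 and GAPDH had an r of 0.784 and 0.778, LDHA and GAPDH 0.539 and 0.589, and LDHA and ENO1 0.520 and 0.553. TPI1 and GAPDH followed at 0.395 and 0.452. PGK1 and ENO1 reached 0.334 and 0.484. Cells of a library share its preparation and their depth, so these values describe the libraries and carry no test.

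PGAM1 stood apart, more so in library 1. Its r with GAPDH was 0.0439 and 0.262 and with ENO1 0.125 and 0.335, at a mean of 2.70 and 2.68 UMIs per thinned cell. TPI1, at 4.38 and 4.30 UMIs, and PGK1, at 3.46 and 3.90 UMIs, had higher r with GAPDH and ENO1, but also higher counts. The part of count size in this was not tested. PFKP and ALDOA had means below 1 UMI (0.621 to 0.724), and their pairs lay between 0.0109 and 0.228. Within the 7 clusters that held at least 200 cells in both libraries the mean r was 0.202 and 0.245, and single clusters ran from 0.128 to 0.301 in library 1 and from 0.172 to 0.367 in library 2. Clusters 4 and 8 were left out of this in both libraries.

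**Figure D4:**
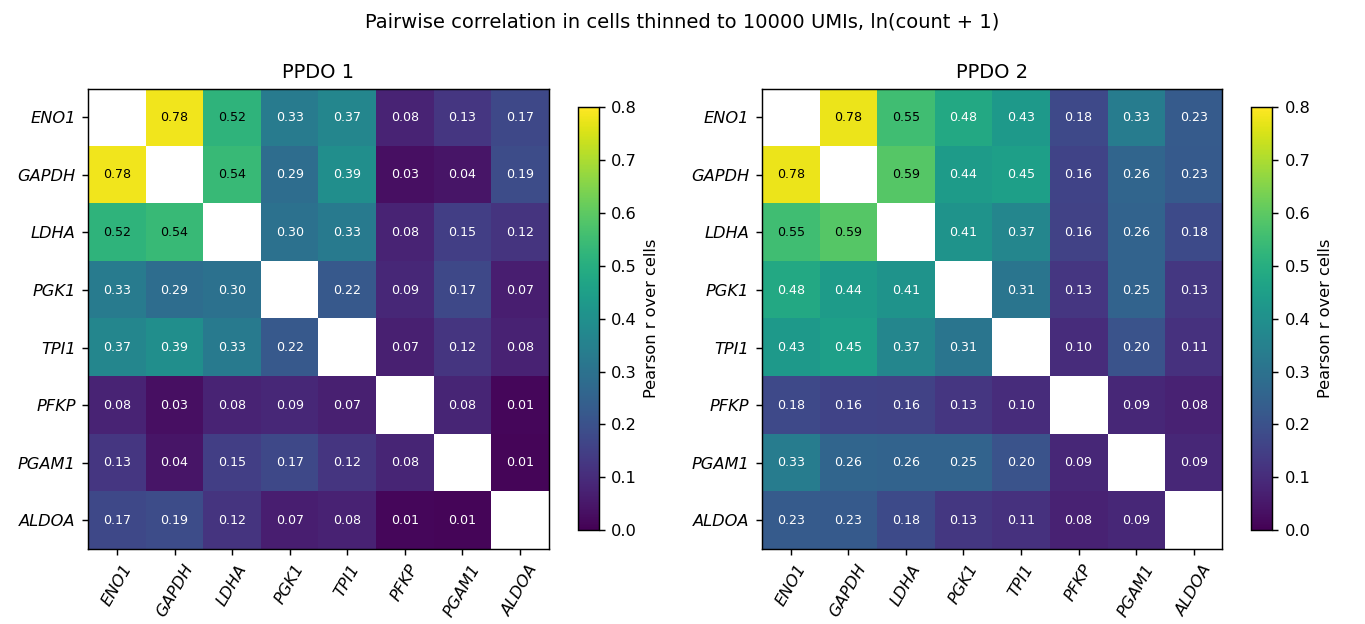
Pearson r between each pair of enzymes over cells of PPDO 1 (left, 8363 cells) and PPDO 2 (right, 7161 cells), each thinned to 10000 UMIs, with the color scale from 0 to 0.8. The block of ENO1, GAPDH and LDHA holds the highest values in both libraries. The row of PGAM1 is darker, with lower r, in PPDO 1 than in PPDO 2.

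The sum of the 8 enzymes varied widely from cell to cell. Per 10000 UMIs it had a median of 97 in library 1 and 107 in library 2, with 10th percentiles of 45 and 43 and 90th percentiles of 332 and 327. GAPDH had a variance of 123 and 116 times its mean and ENO1 of 11.4 in both libraries. PGK1 (1.44 and 1.77), PGAM1 (1.29 and 1.34), ALDOA (1.27 and 1.30) and PFKP (1.08 and 1.13) lay nearer to 1, the value of counting error alone. At a like relative spread this ratio grows with the mean count. That mean was 105 and 108 UMIs for GAPDH and 0.679 and 0.724 for PFKP, so the ratio does not rank the enzymes by relative spread. At 5000 UMIs per cell, a depth that 1941 and 1174 ductal-like cells reached, the sum had a variance of 57.0 and 58.6 times its mean in PPDO and 2.25 and 2.23 times in ductal-like cells. The mean r over pairs at this depth was 0.157 and 0.212 in PPDO and 0.083 and 0.065 in ductal-like cells, where the enzymes were also lower (a median sum of 8 and 9 UMIs against 48 and 53).

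The variation followed PPDO clusters that had been made without these genes. Cluster 4, led by ADM, TIMP3 and EGLN1, held the most GAPDH (27594 and 33710 CPM) and ENO1 (4513 and 4563 CPM). It was 12.6% of library 1 (1117 cells) and 1.72% of library 2 (126 cells), and its cells were shallow, with medians of 18621 and 22490 UMIs. Cluster 1, led by IGFBP6, PTGS2 and SLC25A35, came next at 14709 and 17494 CPM of GAPDH. Cluster 0, led by CXCL14, held the least in both libraries, 4054 and 4503 CPM, which is still above the 724 CPM of the highest ductal-like cluster. The highest cluster exceeded the lowest 6.81 and 7.49 times for GAPDH, 3.16 and 3.45 times for ENO1 and 2.29 and 2.80 times for LDHA, but at most 1.63 times for PGK1, TPI1 and PGAM1.

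Not every enzyme peaked in cluster 4. PFKP was highest in cluster 6 (96.3 and 98.7 CPM), which was led by the mitosis genes CENPF and TOP2A. PGAM1 was highest in cluster 6 in library 1 (338 CPM) and in cluster 1 in library 2 (313 CPM), and PGK1 was highest in cluster 1 in both (424 and 491 CPM). PGAM1 and PFKP in cluster 4 were at 219 and 47.5 CPM in library 1, both lower there than in any other cluster, and at 293 and 82.5 CPM in library 2. Cluster 5, led by SPRP, SLPI and KRTDAP, came after clusters 4 and 1 for GAPDH in both libraries (11729 and 10223 CPM), while its ENO1 (1795 and 1323 CPM) was the lowest of all clusters in library 2.

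**Figure D5:**
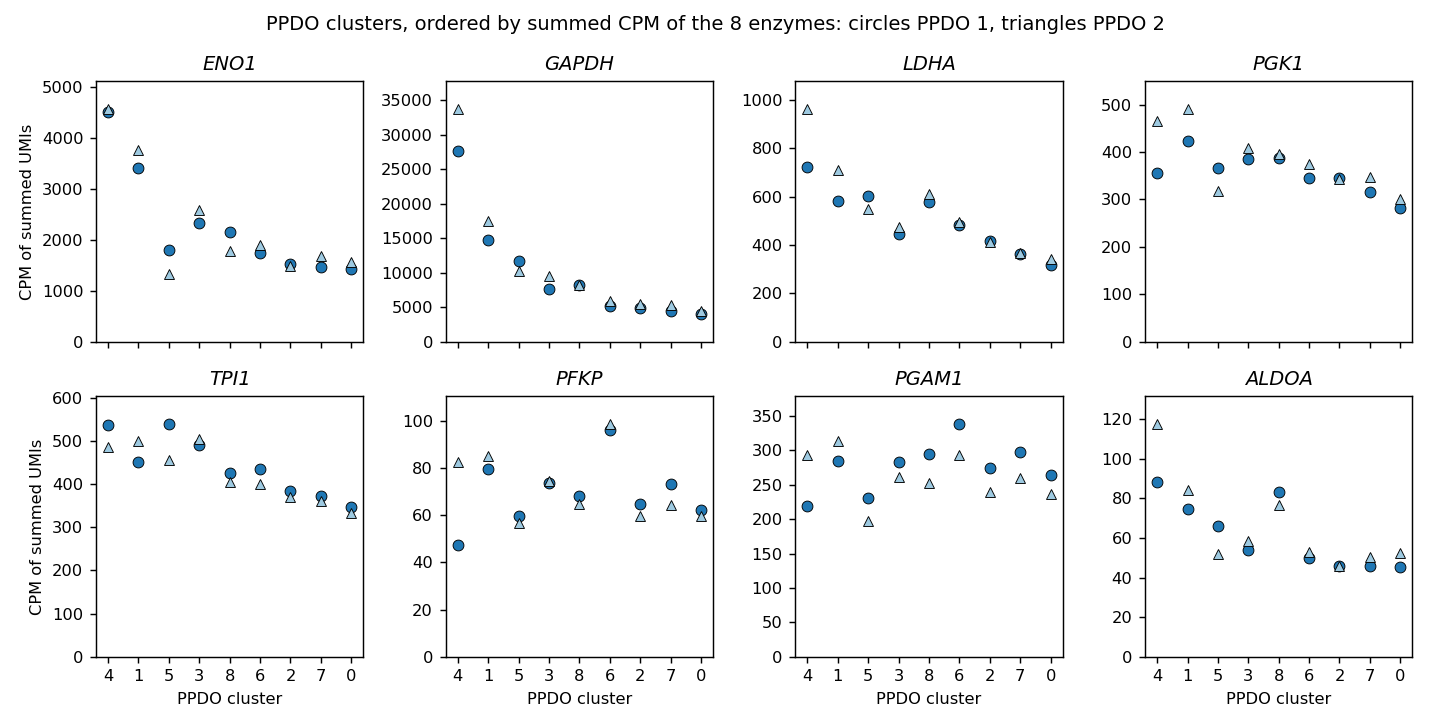
CPM of each enzyme (y axis from 0) in the 9 PPDO clusters (x axis), ordered by the summed CPM of the 8 enzymes; circles are PPDO 1 and triangles PPDO 2. GAPDH and ENO1 drop steeply after clusters 4 and 1, whereas PGK1, TPI1 and PGAM1 vary by at most 1.63 times.

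Genes were next ranked by the lower of their 2 correlations with the summed enzymes over thinned PPDO cells, among 7110 other genes found in at least 10% of cells. The first was BNIP3, a mitophagy gene known to respond to low oxygen, at 0.835 and 0.725. CDA, cytidine deaminase, followed at 0.729 and 0.670 and C4orf3 at 0.629 and 0.594. ADM (0.706 and 0.587) and NDRG1 (0.697 and 0.555) are also known as hypoxia-responsive genes, and PTGES, a prostaglandin synthase, reached 0.601 and 0.571. The other 4 of the first 10 were the ribosomal protein genes RPL24, RPL10 and RPL26 and the translation initiation factor gene EIF1, at 0.554 to 0.680. At the other end, ranked by the higher of the 2 correlations, were HSD17B12 (-0.605 and -0.570), the mitochondrially encoded complex I genes ND5 (-0.675 and -0.501) and ND3 (-0.675 and -0.428), and ANK3 and FOXP1. The median over the 7110 genes was -0.067 and -0.050. Since GAPDH dominates the sum, r was also taken with the sum of the other 7, and BNIP3 then had 0.756 and 0.680.

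The summed hypoxia response genes had an r of 0.821 and 0.640 with the enzymes. By enzyme this was 0.811 and 0.612 for GAPDH, 0.726 and 0.584 for ENO1 and 0.475 and 0.512 for LDHA, but 0.0058 and 0.226 for PGAM1 and 0.013 and 0.163 for PFKP. The summed nuclear oxidative phosphorylation genes ran the other way, at -0.442 and -0.159, and so did the pentose phosphate genes, at -0.419 and -0.292. With GAPDH left out of the sum these were -0.317 and -0.106, and -0.309 and -0.228. By enzyme, r with oxidative phosphorylation was small and positive for TPI1 (0.017 and 0.106) and PGAM1 (0.141 and 0.034). PFKP differed in sign (0.072 and -0.023), and the rest were negative in both libraries. Ribosomal protein genes ran with the enzymes (0.343 and 0.414) and mitosis genes were near 0 (-0.031 and -0.087). Of the other glycolysis genes, PKM had 0.345 and 0.510, HK2 0.449 and 0.259, HK1 0.383 and 0.237 and GPI 0.227 and 0.194. PFKM, HK3 and ADPGK (-0.085 to -0.056) lay near the median over the 7110 genes (-0.067 and -0.050). The transport list had 0.012 and 0.0012, with SLC16A3 at 0.364 and 0.367 and SLC16A1 at -0.112 and -0.109. The immune list, which in PPDO is nearly all CD74, had 0.523 and 0.459.

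Cells with more of the summed enzymes tended to have fewer UMIs before thinning and a lower mitochondrial share. The summed enzymes had an r of -0.525 and -0.260 with the log of all UMIs of the cell and of -0.732 and -0.563 with its mitochondrial percent. By enzyme, r with the mitochondrial percent was -0.735 and -0.565 for GAPDH, -0.612 and -0.448 for ENO1, -0.165 and -0.245 for PGK1 and 0.0098 and -0.099 for PFKP. With the doublet score the sum had -0.142 and -0.020. The part of depth and mitochondrial share in the covariation was not tested beyond thinning.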

How the data were processed

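Single-cell libraries were made with 10x 3' chemistry. The authors deposited UMI counts per feature and barcode from Cell Ranger, mapped to an in-house pig annotation (the submitters' notes name Sscrofa11.1 and GRCh38). Ambient RNA removal in the study came after these deposited counts and was not applied here.

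The members and lists were chosen with earlier results of these data known. Features of a gene were summed. Each enzyme had 1 Ensembl identifier, and 3' extensions gave at most 8.99% of an enzyme's UMIs. PPDO cells had 1000 to 9000 features and at most 3% mitochondrial UMIs. Primary cells had at least 400 features in library 1, or 800 features and 3000 UMIs in library 2, at most 9000 features and 8% mitochondrial UMIs, and a Scrublet score of at most 0.25 or 0.15. The labels do not say which PPDO line is which library, so 1 lower limit was used for both. Primary libraries 1 and 2 were assumed to match the methods' own numbering, on which these limits depend. An eGFP transgene feature was among the leading genes of endocrine-like cluster 3, which had 817 cells in library 2 and 11 in library 1. The methods' numbering likewise places the INS-eGFP animal in library 2. Libraries held 6999 to 9853 barcodes and 87043513 to 366263520 UMIs, and pairs of libraries shared 10 to 23 barcodes. Cells were clustered with scanpy 1.11.5 (2000 variable genes, 20 components, 15 neighbours, Leiden resolution 0.5), leaving out the glycolysis, transport, control and hypoxia genes.

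UMIs were summed per library and class and tested with edgeR 4.0.16 (quasi-likelihood, TMM, filterByExpr, R 4.3.3), two-sided with Benjamini-Hochberg adjustment. DESeq2 1.42.0 was an alternative. Primary classes were fitted with library as a term. Per the study the 2 libraries of a group came from different animals or lines. The PPDO lines also differed in passage and pig age. The primary pancreata differed in genotype, in how their cells were isolated and sorted, and in day of handling. The p-values therefore measure the spread between libraries with all of these included. In simulated counts (dispersion 0.05) for the PPDO to ductal-like comparison, 11.2% of 2-fold and 83.8% of 4-fold changes were called among 22837 genes. The fitted square root of the dispersion was 0.302 for this comparison and 0.462 against all primary cells. Both lie above the simulated setting, so these shares may be too high for these data. Correlations used cells thinned without replacement. Named list genes had at least 50 CPM in PPDO or ductal-like cells, or 200 CPM in any class, or were fixed isoforms, hexokinases and transporters. HKDC1, PC, PCK1, PCK2, G6PC2, FBP1 and the marker genes fall outside this rule and were named after their values were seen. The 10 genes with the highest lower-of-2-libraries correlation and the 5 with the lowest higher-of-2-libraries correlation were named. Gene positions are from RefSeq. Some items are not reported here. Alternatives are given in the closing section, and scaling by library totals was added after seeing the data.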

Additional observations from a re-analysis of the deposited data

How the results depend on the processing

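Over ductal-like cells, 6 enzymes were called higher under every alternative run, leaving out any library included (6 to 6). Scaled by library totals, 1 enzyme was called lower (ALDOA) and PGAM1 changed sign (-0.29). Over all primary cells the count ran from 0 to 8 with a library left out. It was 0 without PPDO library 1 and 0 without PPDO library 2, 8 without primary library 1 and 7 without primary library 2. With 2 libraries a side, a lone library was taken to vary like the other group.

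With a replicate block 6 enzymes were called over ductal-like cells and 5 over all primary cells, where PFKP was lost (edgeR adjusted p = 0.0605). Same-numbered libraries did not deviate together (r = -0.00985 and -0.0168), so the numbers were not taken to pair them.

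The count of enzymes called higher in endocrine-like cells was 0 with doublets kept, without a library term, without a low-count filter, by library totals, and without hormone and digestive enzyme genes. In immune-like cells changes near 0 turned sign, ENO1 to -0.10 without a filter and -0.058 with doublets kept, TPI1 to 0.10 with DESeq2 and 0.0046 with the left-out genes used for clustering, and PFKP to -0.031 without a filter. ENO1 in acinar-like cells was not called with those genes used (-0.49) or doublets kept (-0.72), and TPI1 in endothelial-like cells was lost under the same alternatives (-0.72 and -0.83). Fits without a primary library left no residual degrees of freedom for the classes and were not run.

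The summed level was 14654 CPM in PPDO, 349 in endocrine-like and 618 in endothelial-like cells as a mean of cells, and 821 and 652 in the last pair without hormone and digestive enzyme genes, which turned their order. The mean r was 0.184 at 5000 UMIs, 0.312 at 20000 UMIs and 0.360 with all UMIs scaled, and each library alone gave 0.206 and 0.285. The causes were not tested. Summing only the main identifier of each enzyme could change nothing and was not run.

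Over all genes, calls against ductal-like cells were 10297, and 5012 and 4548 without PPDO library 1 or 2. Against all primary cells they were 6358, and 10179 with DESeq2, 2186 with the block, 0 without either PPDO library, and 13013 and 12368 without primary library 1 or 2. By library totals they were 10601 in place of 5607 for acinar-like and 9541 in place of 6221 for endocrine-like cells.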

Other observations

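Stellate-like cells of both primary libraries and Schwann-like cells of library 1 were left out of the tests. They had a summed level of the 8 enzymes between those of endothelial-like and ductal-like cells, which did not hold for each enzyme. Library 2 held 1 Schwann-like cell, which is not read. In stellate-like cells the 8 enzymes summed to 911 CPM in library 1 (753 cells) and 984 CPM in library 2 (48 cells), with LDHA at 44.9 and 41.5 CPM. The 2 Schwann-like clusters of library 1 summed to 750 and 680 CPM, with LDHA at 49.0 and 62.1 CPM.

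Unnamed cells were uneven. Clusters 21 and 22 of library 1, whose cells had medians of 1196 and 1298 UMIs, held 1709 and 1079 CPM of the 8 enzymes, and cluster 13 of library 2 held 667 CPM. Among immune-like clusters, PFKP was at 56.6 and 46.0 CPM in cluster 9 and 6.26 CPM in cluster 14 of library 1. LDHA lay between 128 and 173 CPM in all of these immune-like clusters.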
